A study of Mus musculus with 11 samples.

Results

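The tumorigenic melanoma lines 4C11- and 4C11+ were compared with the non-tumorigenic lines melan-a and 4C, taking the 6 libraries of the first arm and the 5 libraries of the second from the 11 libraries of the series by their line labels. No measured value was used to place a library in an arm. All 4 mouse lines share 1 origin. Melan-a is an immortalized, nonmalignant melanocyte line (2 libraries), and 4C (3 libraries), 4C11- (3 libraries) and 4C11+ (3 libraries) were derived from it by repeated cycles in which the cells were kept from attaching. 4C is described as pre-malignant and mesenchymal-like, 4C11- as mesenchymal-like melanoma that does not metastasize, and 4C11+ as epithelial, metastatic melanoma. Melan-a was grown in serum-containing medium with 200 nM PMA, a phorbol ester that activates protein kinase C, and the other 3 lines were grown in the same medium without it. Each arm therefore held 1 line called epithelial and 1 line called mesenchymal-like, and the arms could be compared in 2 pairs that share no library: 4C11+ against melan-a (the epithelial pair) and 4C11- against 4C (the mesenchymal-like pair).

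The design limits what an arm stands for. Each arm holds 2 lines, each of which is a single derived population, and the libraries of a line are cultures of that line. The p-values measure the spread between cultures, and with the lines as the units the smallest two-sided p of an exact permutation test over the 4 lines is 0.333. In the epithelial pair, tumorigenicity and the absence of PMA change together and cannot be told apart.

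Tumorigenicity is the ability of cells to grow as a tumor when placed in an animal. In melanoma it is commonly reached through growth signals that pass from receptor tyrosine kinases and RAS to ERK, and through loss of the brakes that hold melanocytes out of the cell cycle, among them the products of the Cdkn2a locus and the p53 pathway. Melanocytes arise from the neural crest and are defined by the transcription factors Mitf and Sox10 and by pigment enzymes such as Tyr, Tyrp1 and Dct.

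Gene levels are the deposited log2 values, made from CPM (counts scaled by library size). All of them were on 1 common distribution, with the same highest value, 13.6937, in every library and library medians that spanned 0.0106. They are compared here only within a gene. On a common distribution the depth of a library cannot be read from these values. The steps between the lowest values of a library were taken as single reads, and a gene with 3 reads or fewer in a library is called off there. Libraries of a line correlated at 0.888 to 0.981 across 14272 genes, with the lowest value in 4C11-, where replicate 1 stood somewhat apart (without it the contrast of the arms called 1245 genes in place of 1142), and the 2 melan-a libraries correlated at 0.907. The line labels matched part of the melanocyte markers. Sox10 lay at 9.05 and 7.88 in melan-a and at 7.68 to 8.34 in 4C11+, but it was off in all 3 libraries of 4C and did not exceed 0.48 in 4C11-. Mitf, Tyrp1 and Dct followed the same split and did not exceed 1.14 in either mesenchymal-like line. Tyr and Pmel, a melanosome matrix gene, did not follow it. In melan-a Tyr was at -0.25 and 1.29 and Pmel at 2.41 and 2.95, against 8.39 to 8.7 and 11.72 to 12.2 in 4C11+. Tyr was off in 4C and 4C11-, so the defining pigment markers were off or low in these 2 lines. Pax3, a neural crest and melanocyte factor, was present in all 4 lines at 5.1 or above. Few markers of other cell types were among the deposited genes: 3 of 7 for fibroblasts, 1 of 6 for endothelial cells, 3 of 8 for leukocytes, 1 of 6 for keratinocytes and 3 of 7 for Schwann cells and neural crest. Of these 11 genes, 2 rose and 1 fell between the arms. That contrast does not show the 3 fibroblast markers, whose line means were higher in the mesenchymal-like line of each arm. Col1a1 was at 10.87 in 4C and 10.57 in 4C11-, against 1.42 in melan-a and 1.76 in 4C11+. In the same order Col3a1 was at 5.4 and 5.42 against -2.24 and -1.43, and Pdgfra at 7.53 and 8.06 against 5.14 and 2.35.

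The first question was how many genes separated the arms. In the contrast of the mean of the tumorigenic lines with the mean of the non-tumorigenic lines, 650 genes were higher (percent called: 4.55) and 492 were lower (percent called: 3.45) at a limma adjusted p under 0.05, together 8% of all genes. The largest increases included Prdm16, a zinc finger chromatin regulator, Armcx2, the T-box factor Tbx15 and the signaling regulator Arhgdib. The largest decreases included Pcsk6, a convertase that processes secreted precursors, the Wnt ligand Wnt5a and the peroxidasin Pxdn. The count depends on what is taken as the error. It was 23 when the 6 and 5 libraries were fitted as 2 plain groups, so that the spread between lines entered the error, and 136 with arm and phenotype as 2 additive terms, and it was 2660 with libraries weighted by their quality. The 23 included Prdm16, Fam234b, Tbx15, Zdhhc15, Sec16b, Ecscr, Cntln, Pcsk6 and Wnt5a. Without melan-a replicate 3 it was 1745, and without 4C replicate 2, 4C replicate 3, 4C11+ replicate 1, 4C11+ replicate 2 or 4C11- replicate 2 it was 669, 708, 660, 664 or 728.

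The arm was the smaller part of what separated the lines. When the differences among the 4 line means were split over 3 independent contrasts, 17.8% of the sum of squares went to tumorigenicity, 65.8% to phenotype (mesenchymal-like against epithelial) and 16.4% to the interaction, which is how much the 2 pairs differ. Tumorigenicity was the largest of the 3 in 3979 genes, 27.9% of those tested, against 6671 for phenotype and 3622 for the interaction. The share rose to 20.8% without melan-a replicate 3 and fell no lower than 16.7% without any other library.

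The pairs were unequal. In the epithelial pair 1197 genes were higher (8.39%) and 1073 lower (7.52%), and in the mesenchymal-like pair 180 were higher (1.26%) and 58 lower (0.406%), with median standard errors of 0.441 and 0.394. The median absolute difference was 0.625 in the epithelial pair and 0.365 in the mesenchymal-like pair. Across genes the 2 sets of differences correlated weakly (Pearson 0.0479 and Spearman 0.0349, 14272 genes, which are not independent replicates), and 51.8% of all genes had the same sign in both. Of the 650 genes called higher, 487 were also called in the epithelial pair only, 73 in the mesenchymal-like pair only, 35 in both and 55 in neither. Of the 492 called lower, the corresponding counts were 409, 25, 7 and 51. The difference between the pairs was itself called for 1403 genes (9.83%), and among them were 290 of the 650 and 262 of the 492. That count was 865 without 4C replicate 2, 770 without 4C11+ replicate 1, 845 without 4C11+ replicate 2 and 869 without 4C11- replicate 2. The count for the epithelial pair was 1089 without 4C11+ replicate 1, 1145 without 4C11+ replicate 2 and 1185 without melan-a replicate 2. That for the mesenchymal-like pair was 93 without 4C replicate 2, 113 without 4C replicate 3, 97 without 4C11- replicate 2 and 155 without 4C11+ replicate 1.

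**Figure D1:**
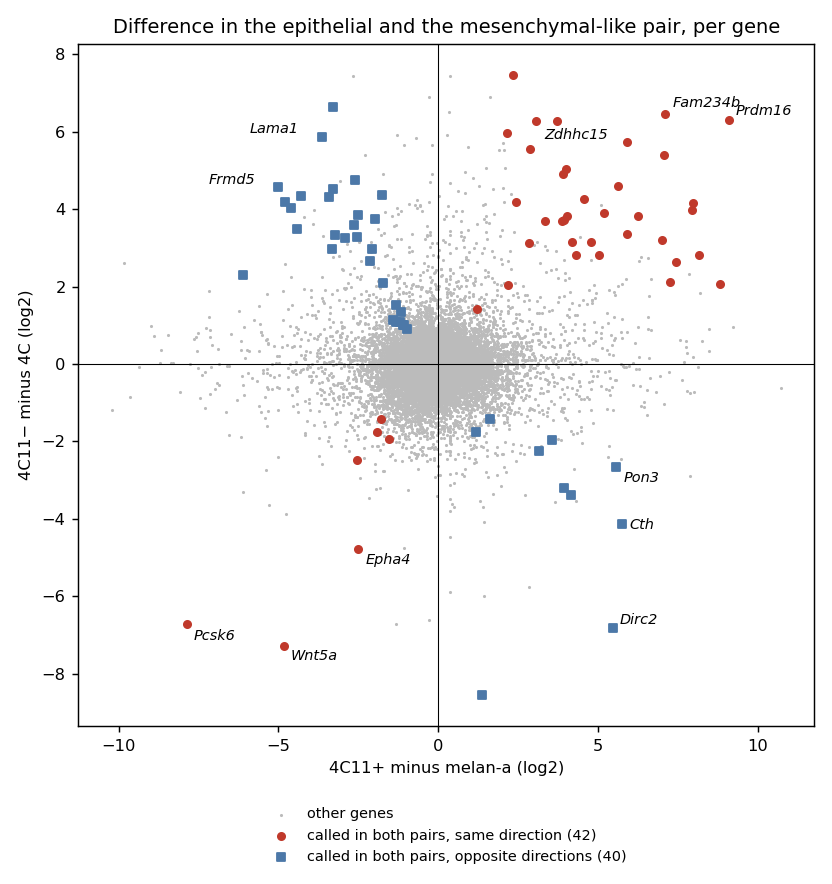
Each point is 1 of 14272 genes, with the log2 difference of 4C11+ from melan-a on the x axis and of 4C11- from 4C on the y axis. The 42 genes called in both pairs in the same direction (red circles) lie mostly in the upper right, and the 40 called in opposite directions (blue squares) lie mostly in the upper left.

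Genes called in the same direction in both pairs were examined next. There were 42 of them, 35 higher (0.245% of all genes) and 7 lower (0.0490%), and a further 40 (0.280%) were called in both pairs in opposite directions. The 82 genes called in both pairs made up 3.61% of the calls in the epithelial pair and 34.5% of those in the mesenchymal-like pair. Among the 35 higher genes the median difference between the arms was 4.55, 24 of them differed more in the epithelial pair, and 34 were on in every tumorigenic library. In 13 of the 35 the gene was off in all 5 non-tumorigenic libraries. Without 4C replicate 2 or without 4C11- replicate 2 the count of genes with 1 direction was 24, and the count in opposite directions was 8 or 13. The latter was 20 without 4C replicate 3, 18 without 4C11+ replicate 1 and 21 without 4C11+ replicate 2. With genes of a mean log2 value below 1 left out, 19 genes had 1 direction and 25 opposite ones.

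Prdm16 (GRCm38 chromosome 4, 154316125 to 154636873, minus strand) had the largest increase of all genes whose arms did not overlap. Its values were 2.33, 3.38 and 2.86 in 4C11- and 5.82, 5.76 and 7.07 in 4C11+. They were -3.15 and -2.58 in melan-a and -3.44 in each 4C library, the lowest value of each of those libraries. The 6 tumorigenic libraries were all on and the 5 others all off, and the level in the tumorigenic lines was at least 5.36 higher on the log2 scale, measured from the value that 3 reads per library would give (adjusted p = 1.15e-06). The bound was 6.61 in the epithelial pair and 4.12 in the mesenchymal-like pair, and the fitted difference between the pairs was 2.79 ± 0.73 (SE, adjusted p = 0.0348).

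Fam234b, a membrane protein gene of unsettled role, rose by 6.78 ± 0.55 (SE, adjusted p = 2.07e-05). It lay at 3.41 to 4.45 in 4C11- and 5.61 to 5.66 in 4C11+, against -3.15 and 0.22 in melan-a and -3.44 to -1.98 in 4C. The rises in the 2 pairs were alike in size, 7.1 and 6.46, and their difference was 0.64 (adjusted p = 0.766). Sec16b, which takes part in organizing the sites where cargo leaves the endoplasmic reticulum, was off in every non-tumorigenic library and lay at 1.51 to 2.4 in 4C11- and 2.49 to 2.96 in 4C11+. The increase was at least 3.12 (adjusted p = 1.3e-05). Zdhhc15, an enzyme that attaches palmitate to proteins, rose by 5.82 ± 0.63 (adjusted p = 0.000173) and by nearly equal amounts in the pairs, 5.9 and 5.73. Among the 5 non-tumorigenic libraries it was above 3 reads only in 4C replicate 1, at 0.6.

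Several of the shared genes stood higher in 4C11+ than in 4C11-. Tbx15, a developmental transcription factor, was at 0.7 to 1.05 in 4C11- and 4.54 to 5.37 in 4C11+ and was off elsewhere, an increase of at least 3.79 (adjusted p = 2.99e-06). Acpp, an acid phosphatase, was at 1.04 to 1.73 in 4C11- and 5.59 to 6.17 in 4C11+ and again off elsewhere. Arhgdib was at 8.22 to 8.63 in 4C11+ and 6.05 to 6.51 in 4C11-, above the 3.23 to 4.68 of 4C and the -0.7 and 0.06 of melan-a (5.44 ± 0.28, adjusted p = 1.15e-06). Uchl1, a ubiquitin hydrolase abundant in neurons, rose by 7.45 in the epithelial pair and by 2.63 in the mesenchymal-like pair. Armcx2, Tmem246, Ecscr, Eya4 and Cntln also rose in both pairs, with fitted differences between the arms of 4.42 to 6.06. The rise of Cntln in the epithelial pair was 3.99, and 2.39 without melan-a replicate 3 (adjusted p = 0.0488). Armcx2 and Tmem246 varied within 4C11-, from -1.5 to 2.6 and from -0.7 to 1.83.

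Col4a2, which encodes a chain of basement membrane collagen, also rose in both pairs. It was at 5.2 to 5.53 in 4C11- and 3.84 to 4.54 in 4C11+, against -0.7 and 0.4 in melan-a and 1.78 to 3.46 in 4C (3.55 ± 0.34, adjusted p = 6.18e-05). Col4a1, which encodes the partner chain, did not pass the test (1.93 ± 0.69, adjusted p = 0.11), and its 2 melan-a values were 5.26 and 0.4.

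Pcsk6 (chromosome 7, 65861734 to 66050386, plus strand) led the genes that fell in both pairs. It was at 3.97 and 6.79 in melan-a and 4.65, 4.73 and 5.85 in 4C. In 4C11- it was 0.26, -3.15 and -2.01, and it was off in all 3 libraries of 4C11+ (-2.44, -2.44 and -2.58). The fitted difference between the arms was -7.29 ± 0.65 (adjusted p = 4.01e-05), and the fall was at least 5.36 on the log2 scale in the epithelial pair. Wnt5a (chromosome 14, 28504750 to 28527448, plus strand), a ligand of the Wnt branch that acts without beta-catenin, was off in all 6 tumorigenic libraries. It was at 4.1, 4.1 and 4.21 in 4C, while the melan-a libraries gave -0.25 and 4.95, the first of which is no more than 3 reads. The level was at least 4.02 lower in the tumorigenic lines (adjusted p = 0.000415), and the fitted fall of 4.84 in the epithelial pair was 7.44 without melan-a replicate 2 and 2.23 without melan-a replicate 3.

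The other named genes of this kind did not go to zero everywhere. Epha4, an ephrin receptor, was at 2.67 and 3.6 in melan-a and 1.68 to 2.08 in 4C, and it was off in 4C11- but at -0.24 to 1.68 in 4C11+ (-3.65 ± 0.42, adjusted p = 0.000288). Lifr, the receptor for leukemia inhibitory factor, fell by 1.92 and 1.74 in the pairs. Eps8, an adaptor between growth factor receptors and actin, fell by 1.55 and 1.94, and Pgbd5, derived from a transposase, by 1.8 and 1.42. For Epha4, Lifr and Eps8 the libraries of the arms overlapped, since the phenotypes differed in level, but within each pair the tumorigenic libraries were the lower ones. Without melan-a replicate 2 the fall in the epithelial pair was 1.19 (adjusted p = 0.094) for Lifr and 2.04 (adjusted p = 0.158) for Epha4. Among the genes named as called in both pairs in 1 direction, the call in the mesenchymal-like pair was lost without at least 1 library for Lifr, Pgbd5, Acpp, Arhgdib, Armcx2, Col4a2, Ecscr, Tmem246 and Uchl1. Rtn4rl2, a Nogo receptor homolog, was the 1 gene on in all 5 non-tumorigenic libraries and off in all 6 tumorigenic ones. It was at 3.38 and 3.69 in melan-a, but only at -0.42 to 0.8 in 4C, and was at least 2.64 lower (adjusted p = 0.00119). The converse held for 17 genes, of which 13 were called in both pairs. The value at 3 reads differed between libraries, from -2.01 in 4C11- replicates 2 and 3 to 0.15 in 4C11+ replicates 1 and 2. The same level can therefore be on in 1 library and off in another.

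**Figure D2:**
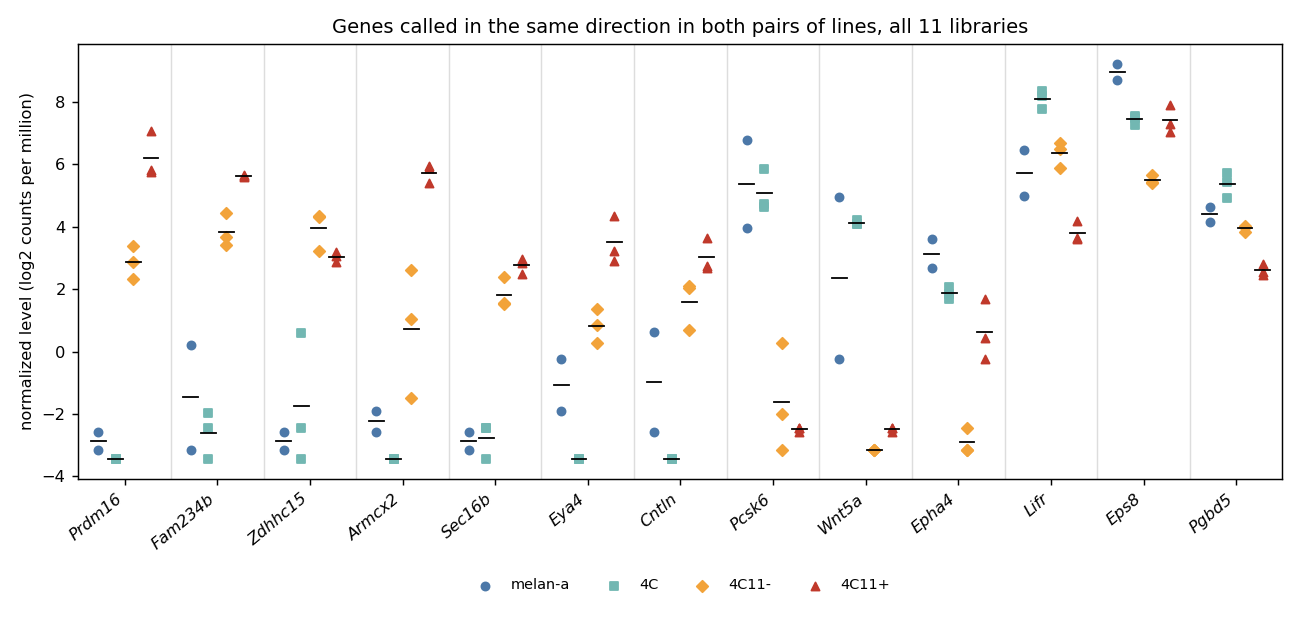
Level (log2 CPM, y axis) of 13 genes called in the same direction in both pairs, with 1 point per library, lines distinguished by color and shape and a black bar at each line mean. Prdm16 is at or below -2.58 in all 5 non-tumorigenic libraries and at or above 2.33 in all 6 tumorigenic ones, and Pcsk6 shows the reverse order.

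The promoters of these genes were compared by their CpG content, since a CpG-poor and a CpG-rich promoter are regulated differently. A window of 300 bases (250 before and 50 after the RefSeq start) was on hand for 9928 of the 14272 genes. The ratio of observed to predicted CpG exceeded 0.6 in 73.2% of them, in 10 of the 25 genes higher in both pairs that have a window (40%) and in 3 of the 12 genes on in tumorigenic libraries only (25%). Among the 4 genes lower in both pairs that have a window, it was 3. The share was 64.9% among all genes called higher, 63.0% among those called lower and 60.5% among genes higher without overlap of the arms. A gene off in all 5 non-tumorigenic libraries is among the deposited genes only through the tumorigenic ones, so all genes are not a like comparison for it. These shares were not tested. Prdm16 (ratio 0.939) and Sec16b (0.275) show both kinds among genes that rose in both pairs, and Epha4 (0.565) is a gene that fell. The bases before the start are shown 5′ to 3′ on the gene's strand, from RefSeq on GRCm38.p6, with CpG dinucleotides in capitals. For Sec16b 182 bases are shown, which end just before the GENCODE start of the gene. The ratios are those of the 300-base windows.
Prdm16 (chr4:154636874-154637123, minus strand): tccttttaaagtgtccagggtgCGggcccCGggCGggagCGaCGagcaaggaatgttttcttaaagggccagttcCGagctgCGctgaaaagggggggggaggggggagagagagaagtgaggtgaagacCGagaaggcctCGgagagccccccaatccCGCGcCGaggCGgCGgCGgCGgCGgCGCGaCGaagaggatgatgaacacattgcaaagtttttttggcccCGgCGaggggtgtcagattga
Sec16b (chr1:157506546-157506727, plus strand): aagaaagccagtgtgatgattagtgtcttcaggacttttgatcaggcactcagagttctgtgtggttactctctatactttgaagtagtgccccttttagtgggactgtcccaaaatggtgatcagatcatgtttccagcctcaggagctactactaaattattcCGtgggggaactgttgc
Epha4 (chr1:77515089-77515338, minus strand): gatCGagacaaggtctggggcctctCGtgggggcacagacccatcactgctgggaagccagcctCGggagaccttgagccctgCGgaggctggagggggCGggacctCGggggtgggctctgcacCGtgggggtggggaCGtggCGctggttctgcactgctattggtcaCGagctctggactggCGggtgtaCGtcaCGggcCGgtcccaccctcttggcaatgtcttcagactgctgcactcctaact

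The 300-base windows were also searched on both strands for the AP-1 motif TGACTCA, the cyclic AMP response motif TGACGTCA, the E-box CACGTG and the M-box TCATGTG, none of which contains another. Of the 25 genes higher in both pairs, 1 held the AP-1 motif and 1 the E-box, and none held the other 2, against 3.39%, 10.2%, 3.31% (cyclic AMP) and 2.1% (M-box) of all 9928 windows. None of the 4 motifs was in the windows of the 4 genes lower in both pairs. These are matches of letters and were not tested.

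Most of the genes called in 1 pair only were called in the epithelial pair. Pxdn, which cross-links basement membrane collagen, was off in 4C11+ but lay at 6.49 to 6.83 in 4C11-, close to the 7.22 to 7.79 of 4C and the 7.24 and 8.04 of melan-a. It fell by at least 7.62 in the epithelial pair and differed by -0.84 (adjusted p = 0.349) in the mesenchymal-like pair. The protocadherin Pcdhgc3 and the molybdenum cofactor enzyme Mocos showed the same order. Pcdhgc3 shares exons with its neighbors in the gamma cluster, so its counts may be split with theirs. Zfp988 and Fam217b were off in 4C11+ and at 0.24 to 1.59 in 4C11-. Nr3c2, the mineralocorticoid receptor, and the G protein subunit Gna14 were low throughout: both were off in 4C11+, and they lay at -1.01 to 3.34 in the non-tumorigenic libraries. The fall of Gna14 in the epithelial pair was 2.8, and 1.56 without melan-a replicate 3 (adjusted p = 0.215).

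Genes called in opposite directions were mostly those that were lower in 4C11+ than in melan-a and higher in 4C11- than in 4C (30 of 40). Frmd5, a membrane-to-cytoskeleton linker, was at 2.07 and 3 in melan-a and 1.51 to 2.54 in 4C11-, and it was off in all libraries of 4C11+ and 4C. The transcription factor Sox8, the purine receptor P2ry1, the paternally expressed Usp29, the laminin chain Lama1 and the semaphorin effector Dpysl5 had the same order, with fitted falls of 3.65 to 4.79 in the epithelial pair and rises of 3.5 to 5.87 in the mesenchymal-like pair. Sox8, P2ry1, Usp29 and Lama1 were off in 4C11+, so their falls were at least 1.79, 2.28, 2.08 and 1.14. P2ry1 was also off in 4C, and its rise there was at least 2.81. Dirc2, Cth (a cysteine-forming enzyme), Cdc42ep5, Pon3 and Cdyl2 had the reverse order, and their differences between the pairs were 5.42 to 12.27. For Dirc2 the melan-a values were 3.13 and -2.58, a gap wider than the difference of 5.45 in that pair, which was 2.59 without melan-a replicate 3 and 8.31 without melan-a replicate 2. For Sox8 they were 4.16 and -0.54, again a gap wider than the fall of 4.3, which was 1.95 (adjusted p = 0.13) without melan-a replicate 2 and 6.65 without melan-a replicate 3. For Lama1 they were 2.85 and -0.54, and without melan-a replicate 2 the fall of 3.65 became 1.95 (adjusted p = 0.337). The call in the mesenchymal-like pair was lost without at least 1 library for Sox8, P2ry1, Usp29, Dpysl5, Cth, Cdc42ep5 and Cdyl2. None of these genes except Pon3 (1.45, adjusted p = 0.0129) was called in the contrast of the arms.

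Cell cycle brakes and genes of the p53 pathway moved in both directions. Of 22 measured members of the list, 5 rose, 3 fell and 14 did not pass, so that 36.4% were called against 8% of all genes. Cdkn2a, which encodes the inhibitors p16 and p19Arf, was present in 3 of the lines, with 6.59 and 7.36 for melan-a, 6.32 to 6.81 for 4C and 6.87 to 7.9 for 4C11-. In 4C11+ the values were -0.7, -2.44 and -2.58, all off. Cdkn2b, which encodes a related inhibitor next to it, was at 3.89 to 5.64 in the other 8 libraries and off in 4C11+. The levels were at least 6.95 and 4.55 lower in 4C11+ than in melan-a (adjusted p = 1.21e-06 and 1.53e-06), while the mesenchymal-like pair differed by 0.73 and 0.48 (adjusted p = 0.572 and 0.657). These genes occupy chromosome 4 from 89274471 to 89294653 and from 89306299 to 89311039 on GRCm38. The 2 predicted genes that follow them in the deposited genes, up to 89463487, were off in 4C11+ as well, and the neighbor on the other side, Mtap (89137122 to 89181081), an enzyme of methionine salvage, was at 8.4 to 8.49 in 4C11+ and 6.97 to 8.22 in the others.

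Some targets of p53 were higher in 4C11+, and others were not. Cdkn1a, the inhibitor p21, was at 7.46, 7.46 and 7.48 there, against 2.09 to 4.45 in the other 8 libraries. Mdm2, the ligase that degrades p53, was at 7.87 to 8.14 against 5.25 to 5.91, and Ccng1 and Zmat3 were at 9.24 to 9.4 and 6.79 to 7.33 against 3.68 to 6.07 and 4.26 to 5.33. The pro-apoptotic gene Bax was at 6.56 to 6.88 against 5.26 to 6.18. The rises in the epithelial pair were 4.2, 2.36, 3.94, 2.34 and 1.38, in the order named, and the mesenchymal-like pair differed by 0.26, -0.13, -0.78, -0.8 and 0.23, none of which passed. The difference between the pairs was called for Cdkn2a, Cdkn2b, Cdkn1a, Mdm2, Ccng1 and Zmat3 and not for Bax (adjusted p = 0.0847). Other targets of p53 did not pass in the epithelial pair: Sesn2, Trp53inp1 and Bbc3 differed by 1.21, 1.24 and 0.82 (adjusted p = 0.142, 0.229 and 0.341), and Btg2, Sesn1 and Gadd45a by 0.03, -0.2 and -1.01 (adjusted p = 0.981, 0.659 and 0.278).

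**Figure D3:**
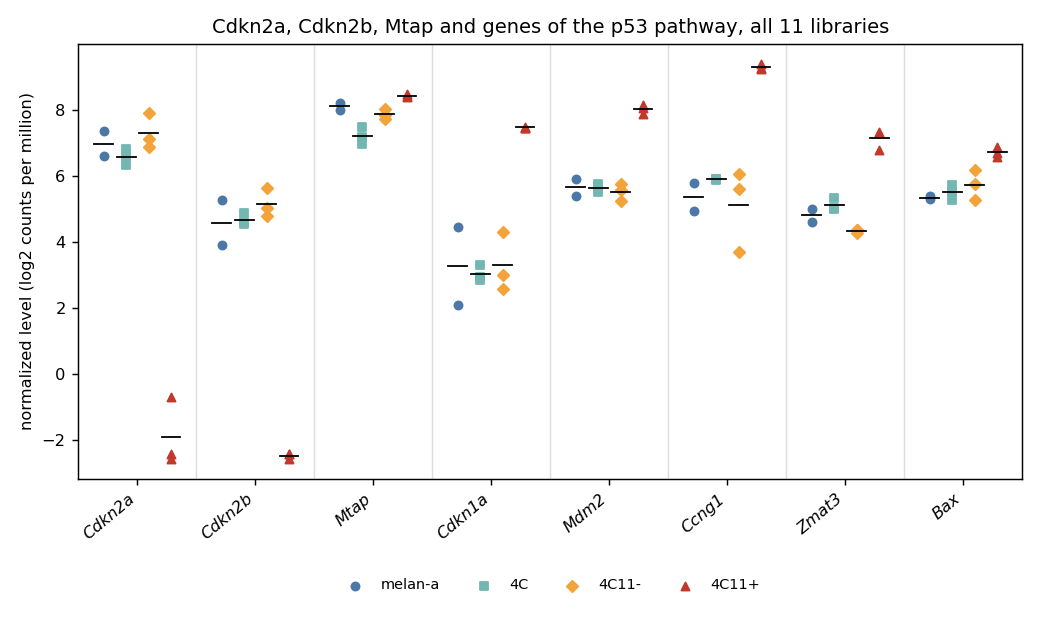
Level (log2 CPM, y axis) of Cdkn2a, Cdkn2b, their neighbor Mtap and 5 genes of the p53 pathway, with 1 point per library, lines distinguished by color and shape and a black bar at each line mean. Only 4C11+ is set apart: Cdkn2a and Cdkn2b are off there, and Cdkn1a, Mdm2, Ccng1, Zmat3 and Bax stand above all other libraries.

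Of 34 genes of the cell cycle engine, 5 rose and none fell (14.7% called, against 8% of all genes). Ccnd2, a D-type cyclin, was the 1 member whose arms did not overlap, at 8.42 to 9.6 in the tumorigenic libraries and 6.64 to 8.07 in the others (1.4 ± 0.2, adjusted p = 0.00156). Mcm3 and Mcm6, subunits of the replicative helicase, rose by 0.93 and 0.8, the phosphatase Cdc25a by 0.76 and the mitotic cyclin Ccnb2 by 0.65. These 4 calls were lost without melan-a replicate 2, which leaves 1 melan-a library and differences of 0.758, 0.636, 0.717 and 0.56. All 4 were also lost without 4C11+ replicate 1 (adjusted p = 0.0632, 0.0507, 0.055 and 0.111) and without 4C11- replicate 2. The calls of Mcm3, Cdc25a and Ccnb2 were lost as well without 4C replicate 2 or 3 or 4C11+ replicate 2 or 3. That of Ccnb2 was lost without any 1 replicate of 4C11-. In the apoptosis and anoikis list 2 of 25 measured genes rose and 2 fell (16% called), among them Bcl2l11 (Bim), a death activator of detached cells, which fell by 1.21 ± 0.3 (adjusted p = 0.0311) and was at 3.2 to 3.8 in 4C11+. Without melan-a replicate 2 its difference was -0.755 (adjusted p = 0.083), and without 4C replicate 2 or 3, 4C11- replicate 2 or 3 or 4C11+ replicate 1 or 2 the call was lost as well.

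Growth factor receptors fell more often than they rose. Of 31 measured genes of the RAS, RAF and receptor tyrosine kinase list, 6 fell and 1 rose (22.6% called, against 8% of all genes). Fgfr2 was at 6.28 to 7.45 in the 8 libraries of melan-a, 4C and 4C11- and was off in 4C11+, a fall of at least 6.84 in the epithelial pair, while the mesenchymal-like pair differed by -0.09 (adjusted p = 0.943). Fgfr1, Axl and Igf1r had the same order and fell by 4, 3.64 and 1.52 in the epithelial pair. Met, the receptor for hepatocyte growth factor, was the exception: it was at 5.29 to 5.57 in 4C and 2.72 to 3.65 in 4C11- (-2.14, adjusted p = 0.0028), and the epithelial pair differed by -0.2 (adjusted p = 0.719). The small GTPase Rras2 rose by 0.71 between the arms and by 1.45 in the epithelial pair. Its call between the arms was lost without any 1 replicate of 4C or 4C11-, and without 4C11+ replicate 1 (adjusted p = 0.118) or 2. Of 18 genes whose transcription follows ERK activity, 4 fell, and none rose (22.2%): Epha4, the ERK phosphatase Dusp5 (-1.74 ± 0.38), the feedback inhibitor Spry1 (-1.18 ± 0.27) and Epha2 (-1.15 ± 0.18). Of these only Epha4 was called in the mesenchymal-like pair. Of 18 measured protein kinase C and AP-1 genes 2 fell, among them Prkcd (-0.76 ± 0.2, adjusted p = 0.0417), which encodes a kinase that phorbol esters activate (11.1% called). Prkcd lost this call without any 1 replicate of 4C or 4C11+, and without 4C11- replicate 2 or 3. Its mean level was 5.39 in 4C11+, against 7.08 for 4C11-, 7.05 for 4C and 6.95 for melan-a; melan-a was grown with PMA and the other 3 lines without it.

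In the matrix, integrin and metalloprotease list 10 of 40 measured genes were lower and 4 higher (35% called, against 8% of all genes), with a median of -0.663 against 0.0173 for all genes. The adhesive glycoprotein Spp1 was at 0.15 to 1.7 in 4C11+ and at 4.96 to 8.52 elsewhere. The laminin-binding Itga3 was at 1.04 to 1.7 against 6.73 to 9.36, and the gelatinase Mmp2 at 2.81 to 3.27 against 6.41 to 8.47. The genes that rose were Col4a2, Lama4, Timp1 and Timp3. Lama4 was called in the mesenchymal-like pair (6.52, adjusted p = 0.00054), in which 4C lay at -3.44 to -0.25 and 4C11- at 3.93 to 5.49, and differed by 0.33 in the epithelial pair. The metalloprotease inhibitor Timp1 was called in the epithelial pair, where melan-a was off and 4C11+ was at 3.56 to 4, and not in the mesenchymal-like pair. Of 17 measured EMT factors and cadherins 3 fell and 1 rose (23.5% called). Zeb1, a driver of the mesenchymal state, was off in 4C11+ and at 4.04 to 5.83 in 4C and 4C11-, and fibronectin (Fn1) was at 5.97 to 6.51 in 4C11+ and 8.81 to 10.97 elsewhere. The one to rise, Cdh5, is the cadherin of endothelial cells. It was at 6.54 to 7.43 in 4C11-, at 4.01 in 4C replicate 1 and at 0.44 or below in all other libraries. Cdh5 was the 1 endothelial marker among the deposited genes.

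In the Wnt list 2 of 30 measured genes rose and 4 fell (20%). With Wnt5a, its receptor Ror1 fell (-3.04 ± 0.24, adjusted p = 1.77e-05): it was off in 4C11+ and at 3.06 to 4.12 in all other libraries. Lef1, the transcription factor at the end of the beta-catenin branch, fell by 2.52 ± 0.41 with the same order. Wnt9a was the member whose tumorigenic libraries all lay above the others, at 1.44 to 3.68 against -1.9 to 1.3 (2.9 ± 0.45, adjusted p = 0.00226).

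Several pigment genes stood highest in 4C11+, and imprinted genes differed in their patterns. Of 15 measured melanocyte genes 3 rose (20%) and none fell. The melanosome matrix gene Pmel was at 11.72 to 12.2 in 4C11+ and did not exceed 2.95 in any other library, and tyrosinase (Tyr) was at 8.39 to 8.7 in 4C11+ and did not exceed 1.29 in any other, melan-a included. Rab27a, which carries melanosomes to the cell edge, rose by 1.97 ± 0.34. Of 11 measured imprinted genes 4 rose and 1 fell (45.5%). Peg10 was higher in all 6 tumorigenic libraries (5.89 to 7.32) than in the 5 others (4 to 5.45, with a difference of 1.8 ± 0.35, adjusted p = 0.00869), and the pairs differed by 1.83 and 1.78. Peg10 did not pass in the mesenchymal-like pair (adjusted p = 0.0894). Without melan-a replicate 2 its difference in the epithelial pair was 1.1 (adjusted p = 0.291). Igf2 was at 8.5 to 8.83 in 4C11- and 3.83 to 4.77 in 4C, and it was off in 4C11+, and the zinc finger gene Peg3 was likewise off in 4C11+ and at 4.92 to 9.17 elsewhere. Phlda2 rose by 2.88 ± 0.78 (adjusted p = 0.0449) at levels of 1.61 or less.

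The stress and metabolic lists differed in how many of their members were called, against 8% of all genes. Of 19 antioxidant genes driven by NRF2, 4 rose (21.1%), among them Nqo1 (1.96 ± 0.31) and Gsta4 (2.46 ± 0.38), both of which were lower in melan-a than in any other library. In the unfolded protein response 3 of 27 rose (11.1%), led by Xbp1 (1.35 ± 0.24), and in the proteasome 4 of 34 (11.8%), led by Psmc4 (0.97 ± 0.19). In the epithelial pair 42.1% of the NRF2 genes and 38.2% of the proteasome genes were called, against 15.9% of all genes. In oxidative phosphorylation 3 of 34 rose (8.82%), among them Sdhb of complex II, which rose by 1.06 in the mesenchymal-like pair (adjusted p = 0.0321). The call of Sdhb in that pair was lost without several single libraries, among them 4C replicate 2 (adjusted p = 0.155) and 4C11- replicate 2 (adjusted p = 0.151). In glycolysis and hypoxia 1 of 27 rose and 3 fell (14.8%). In the lysosome and autophagy list none of 29 was called. Of 48 histone and DNA modifiers 2 rose and 1 fell (6.25%): the deacetylase Sirt1 (0.94 ± 0.23), the DNA methyltransferase Dnmt3a (0.92 ± 0.21) and the acetyltransferase Crebbp (-0.74 ± 0.21, adjusted p = 0.0498). Of 26 antigen presentation and interferon genes 1 was called (3.85%), H2-K1, which rose by 2.11 ± 0.51. The median of this list was -0.68 in the epithelial pair and 1.06 in the mesenchymal-like pair. In the epithelial pair 5 of its genes fell and 1 rose (23.1% called, against 15.9% of all genes). In the mesenchymal-like pair 1 rose and none fell. The difference between the pairs was called for 8 of the 26, against 9.83% of all genes. Of 25 measured cytokines and growth factors (20% called) 3 rose, among them Ccl2 (1.9 ± 0.31), and 2 fell, among them Pdgfc (-3.1 ± 0.75). The melan-a values of Pdgfc were 5.75 and 0.75, and without melan-a replicate 2 the difference between the arms was -1.847 (adjusted p = 0.0471). None of the 4 Y-linked genes was among the deposited ones. Of the 10 hub genes of each of 3 co-expression modules that the study formed on these samples, so that their direction is not independent evidence, none of the purple ones was called, 4 of the blue ones rose, and of the red ones 2 rose, among them the glucose transporter Slc2a4 (3.07 ± 0.38), and 3 fell, among them the scaffold gene Dlg1 (-1.07 ± 0.17).

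A chromosome stood out in the lower genes. The libraries of the arms did not overlap for 117 genes on the higher side (0.820%) and 77 on the lower side (0.540%). Of those 77, 31 lie on chromosome 16 (40.3%), which holds 421 of the genes tested (2.95%), and 30 of the 31 are protein-coding. On that chromosome 55 genes were called lower and 5 higher, 80.3% of its genes had a negative difference between the arms (48.8% of all genes), and 57.2% were lower in both pairs (25.2% of all). The median difference over its genes was -0.42 between the arms, -0.28 in the epithelial pair and -0.53 in the mesenchymal-like pair, against 0.017, 0.025 and 0.005 over all genes. In each of 10 consecutive bins of 10 Mb the median between the arms was negative, from -0.29 to -0.72. That of the mesenchymal-like pair was negative in all 10 (-0.37 to -1.14), and that of the epithelial pair in 8, with 0.15 from 60 to 70 Mb (8 genes) and 0.08 from 70 to 80 Mb (11 genes).

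The shift had different heights in the lines. Measured from each gene's mean over the 11 libraries, the chromosome 16 median was 0.383 ± 0.081 (SD, n = 2) in melan-a, 0.167 ± 0.039 (n = 3) in 4C, 0.081 ± 0.051 (n = 3) in 4C11+ and -0.345 ± 0.028 (n = 3) in 4C11-. The 3 libraries of 4C11- lay far below all others. 4C11+ lay below melan-a in every library, but 4C11+ replicate 2 and 4C replicate 3 both had a median of 0.122, so that 4C and 4C11+ do not separate by this measure.

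**Figure D4:**
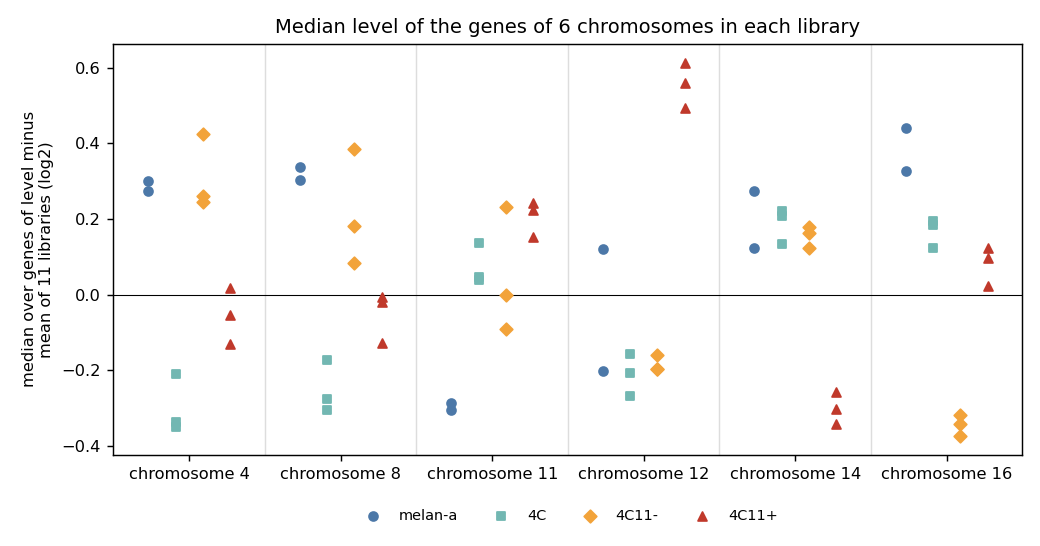
Median over the genes of 6 chromosomes of the level in a library minus the gene's mean over the 11 libraries (log2, y axis), with 1 point per library and lines distinguished by color and shape. On chromosome 16 the order of the line means from the top is melan-a, 4C, 4C11+ and 4C11-, and the libraries of 4C and 4C11+ meet. On chromosomes 12 and 14 the 3 libraries of 4C11+ are set apart from all others. On chromosome 12 melan-a replicate 3 (0.121) lies between them and the rest.

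Named genes of chromosome 16 spanned several functions. Igf2bp2, which binds Igf2 and other messenger RNAs, was at 1.9 to 2.64 in 4C11+ and 4.56 to 5.07 in 4C11-, against 5.88 to 5.94 for 4C and 6.62 and 6.72 for melan-a, the largest fall among the genes of this chromosome named here (-2.72 ± 0.2, adjusted p = 9.53e-06). Tiam1, an activator of the GTPase Rac, was at 7.18 to 7.49 in the non-tumorigenic libraries, 6.48 to 6.76 in 4C11- and 4.68 to 4.87 in 4C11+ (-1.55 ± 0.14, adjusted p = 4.41e-05). The junction protein Jam2 fell by 1.73 ± 0.26 and the scaffold Dlg1 by 1.07 ± 0.17. Gsk3b, the kinase that marks beta-catenin for degradation, was at 7.13 to 7.95 in the non-tumorigenic libraries and 5.43 to 7 in the tumorigenic ones (-0.9 ± 0.22, adjusted p = 0.027). Klhl24, a ubiquitin ligase adaptor, and Crybg3 fell by 1.78 ± 0.38 and 1.25 ± 0.27, and Crebbp, named above, lies on the same chromosome. Tiam1, Jam2, Klhl24 and Crybg3 were chosen for this paragraph after their values were seen.

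No other nuclear chromosome was shifted by 0.2 or more in the same direction in both pairs. The 18 mitochondrial genes had medians of -0.16 in the epithelial and -0.35 in the mesenchymal-like pair, and 61.1% of them were lower in both. Over the 15 of them with a mean log2 value of at least 1, the medians were -0.33 and -0.36. Chromosome 14 had a median of -0.54 in the epithelial and -0.06 in the mesenchymal-like pair, chromosome 12 of 0.61 and -0.01, and chromosome 11 of 0.47 and -0.03. On chromosomes 4 and 8 the pairs went opposite ways, -0.34 and 0.59 on the former and -0.33 and 0.4 on the latter.

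**Figure D5:**
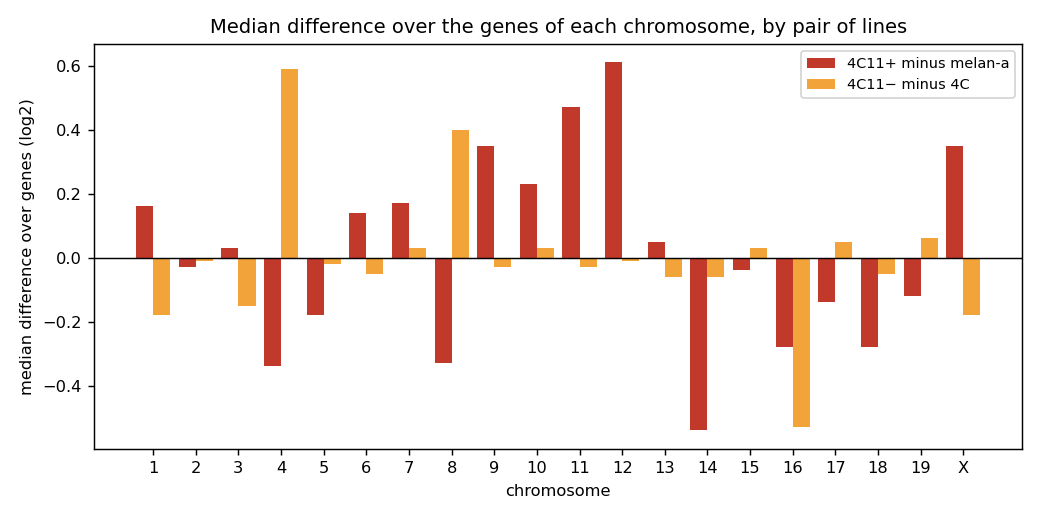
Median over the genes of each nuclear chromosome of the log2 difference between the lines of a pair (y axis), with the epithelial pair in red and the mesenchymal-like pair in orange. Mitochondrial genes are not shown. Chromosome 16 has bars below -0.2 in both pairs, and chromosomes 4 and 8 have bars of opposite sign.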

How the data were processed

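Total RNA depleted of ribosomal RNA was sequenced from the 4 lines (12 cultures by the study's methods, 11 libraries here; melan-a replicate 1 was not analysed here). The authors trimmed reads with Trimmomatic, aligned them to GRCm38 with STAR, counted them against Ensembl release 90, kept genes with at least 1 CPM (counts scaled by library size) in at least 4 libraries, and deposited log2 CPM made with voom of limma; versions and the strand setting are not given in the sources used here. Reads of antisense and overlapping genes may be shared. Here 1 mean per line was fitted to the deposited log2 values of all 14272 genes with limma 3.58.1 (R 4.3.3, mean-variance trend, 7 residual degrees of freedom, Benjamini-Hochberg adjustment, threshold 0.05), and contrasts were taken between line means. The fit was tested on simulated data that held the spread between cultures and none between lines. The contrast of the arms recovered 20.5%, 81% and 97% of 200 genes changed by 1, 2 and 4 on the log2 scale. A gene that did not pass may therefore still differ. Symbols and positions for 14248 genes came from GENCODE M21; 24 genes have none. A library's value at 3 reads, read from the steps of its lowest values, served as the floor. Named were the 12 largest differences each way among called genes whose arms did not overlap, the 8 called in both pairs, the 6 called in opposite directions and the 6 highest on in only 1 arm, with called members of 29 lists; predicted genes were counted, not named, and 1 gene that the rule gives is not reported here. The members and lists were chosen with earlier results of these data known. Figures were drawn with matplotlib 3.10.9.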

Additional observations from a re-analysis of the deposited data

Results flagged for a closer look

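The results given here are those for which the difference between the 2 pairs of lines was itself called (epithelial pair minus mesenchymal-like pair, fitted, log2, limma adjusted p under 0.05), so that a single value for the tumorigenic arm does not describe them. This held for 1403 genes in all.
Among genes higher in the tumorigenic lines, the difference between the pairs was 2.79 for Prdm16, 3.95 for Tbx15, 5.33 for Acpp, 6.73 for Arhgdib, 3.79 for Ecscr and 4.82 for Uchl1. Among the largest decreases it was -8.81 for Pxdn, -7.36 for Pcdhgc3, -4.3 for Zfp988 and -3.38 for Igf2bp2, and it was -1.7 for Tiam1.
Genes called in both pairs in opposite directions gave 12.27 for Dirc2, 9.87 for Cth, 7.54 for Cdc42ep5, 8.23 for Pon3 and 5.42 for Cdyl2. They gave -9.59 for Frmd5, -8.65 for Sox8, -8.96 for P2ry1, -8.63 for Usp29, -9.52 for Lama1 and -7.93 for Dpysl5. Where a line was off, these fitted values rest on levels of 3 reads or fewer.
The brakes and p53 genes gave -9.61 for Cdkn2a, -7.55 for Cdkn2b, 3.94 for Cdkn1a, 2.49 for Mdm2, 4.72 for Ccng1 and 3.14 for Zmat3, and Bcl2l11 gave -2.1. Receptors and signaling genes gave -9.27 for Fgfr2, -3.16 for Axl, -4.32 for Fgfr1, 1.94 for Met, -1.49 for Igf1r, 1.48 for Rras2, -4.7 for Dusp5, -2.11 for Spry1, -3.1 for Epha2 and -1.6 for Prkcd.
Matrix and adhesion genes gave -6.19 for Lama4, 6.97 for Timp1, 4.08 for Timp3, -8.38 for Spp1, -4.7 for Itga3, -3.76 for Mmp2, -3.54 for Zeb1, -3.87 for Fn1 and -5.85 for Cdh5. The difference was 8.71 for Tyr and 8.27 for Pmel, -6.11 for Igf2 and -12.42 for Peg3, -5.23 for Ror1 and -5.11 for Lef1, and 3.67 for Ccl2, 3.42 for Nqo1, 4.67 for Gsta4 and 2.18 for Xbp1. Only melan-a was grown with PMA, which enters every one of these differences and cannot be told apart from the line.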

How the results depend on the processing

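Of 102 genes followed (90 in the contrast of the arms, 12 in the difference between the pairs), none changed direction under any alternative in which it was fitted, and 79 kept an adjusted p under 0.05 without each library in turn. Without at least 1 library the call was lost for Bax, Bcl2l11, Ccnb2, Ccng1, Cdc25a, Cdh5, Crebbp, Dnmt3a, Dusp5, Gsk3b, H2-K1, Igf1r, Igf2, Klhl24, Mcm3, Mcm6, Pdgfc, Phlda2, Prkcd, Rras2, Sirt1, Spry1 and Zmat3. As 2 plain groups the arms gave 23 genes, all among the 1142, and as additive terms 136, also all among them; 91.3% and 68.4% of these were higher, against 56.9%, and 49.5% without 4C11- replicate 1. Array weights gave 2660 genes for the arms, 2501 for the mesenchymal-like pair, 2384 for the difference between the pairs, 223 called in both pairs in the same direction and 250 in opposite directions. Leaving out genes of a mean log2 value below 1 gave 125 for the mesenchymal-like pair, 19 in the same direction and 25 in opposite directions, with fewer genes tested. Without 1 library the counts ranged from 660 to 1745 for the arms, 1089 to 2864 for the epithelial pair, 93 to 320 for the mesenchymal-like pair, 770 to 1934 for the difference between the pairs, 24 to 59 for genes in the same direction and 8 to 58 for opposite directions, and the share of the sum of squares from 16.7% to 20.8%. The chromosome 16 median, whose alternatives were added after the data were seen, ranged from -0.453 to -0.395. The deviations of same-numbered libraries of different lines correlated at -0.226 to 0.388, against -0.416 to 0.34 for libraries of different number. These ranges do not settle whether the replicate numbers pair the samples. With the number as a replicate block the arms gave 1028 genes, of which 962 were shared. The count of genes in the same direction was then 42 and in opposite directions 40. The block changed the count of no other comparison by over 1.5 times. The causes of these changes were not tested. Levels near 3 reads limit every fold change against an arm that is off.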
